A study of Mus musculus with 12 samples.

Results

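The cell cycle and mitotic arrest genes are 45 genes chosen by symbol from textbook roles in cell division, out of 35976 gene symbols in the count files. Of them, 36 are proliferation genes and 9 are inhibitors of the cycle or members of the Rb family, and these were kept apart. RNA was sequenced from testes of outbred Swiss (RjOrl) mouse embryos at E15.5, with 3 libraries per group and 3 embryos pooled in each library. F1 *thia* embryos were carried by mothers that received thiacloprid, a neonicotinoid insecticide abbreviated *thia*, at 6 mg/kg/day by gavage from E6.5 to E15.5, and F1 control embryos by mothers that received the olive oil vehicle. F3 *thia* and F3 control embryos descended from such mothers through males that were crossed with untreated, unrelated females in each generation, so that no F3 embryo and no F3 mother was dosed. No transgene or targeted allele is named for any animal, and each library mixed the RNA of all cell types of the testis.

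A cell passes from G1 to S phase when cyclin D with CDK4 or CDK6, and then cyclin E with CDK2, phosphorylate the Rb proteins and free the E2F factors, which switch on the genes of DNA replication. Mitosis follows under cyclin B with CDK1, with genes of the spindle, the kinetochore and the checkpoint that are transcribed late in the cycle. The INK4 proteins block CDK4 and CDK6, and the Cip/Kip proteins block cyclin-CDK complexes more widely. In the fetal mouse testis the germ cells leave the cycle and rest in G1/G0 until after birth, a step called mitotic arrest, in which *Rb1*, *Cdkn1b* (p27) and *Cdkn2b* (p15) have been implicated, whereas Sertoli and interstitial cells go on dividing. In a bulk library, fewer cells of a type and less RNA per cell cannot be told apart.

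All 45 members were detected in every library, the lowest count being 21 for *Cdkn2b*, and all 45 passed the low-count filter in every comparison. Total counts per library ranged from 25081647 to 68996146. Testis identity was carried by *Amh* of Sertoli cells at 171 to 928 CPM (counts scaled to library size, with TMM), *Ddx4* of germ cells at 56.3 to 247 CPM and *Cyp17a1* of Leydig cells at 882 to 3630 CPM, and *Foxl2* of the ovary lay between 0.459 and 5.32 CPM. The other listed markers of ovarian granulosa cells reached 12.7 CPM for *Fst*, 11.5 for *Irx3* and 12.2 for *Bmp2*. Not every testis marker was high, *Nanos2* and *Rhox6* of germ cells reaching 7.4 and 1.36 CPM and *Fshr* of Sertoli cells 11.3 CPM. One library stood apart. The counts of F3 *thia* replicate 2 differed from those of the other replicates of its group by a chi-square of 90.7 and 100.9 per degree of freedom, whereas the remaining pairs within a group lay between 17.3 and 42.2, and its summed CPM of 8 erythroid markers was 72400, against 34700 and 40800 in replicates 1 and 3. Counts of calls in F3, and the values of most members named there, are therefore also given without it. F1 and F3 embryos are by their nature from different times, and mothers of F1 embryos were dosed by gavage while mothers of F3 embryos were not. Generation, time and the dosing of the mother cannot be told apart. Below, a value after ± is the SD of the 3 libraries of a group, log2FC is the log2 fold change and SE its standard error, both from edgeR, and FDR is the p adjusted over all genes tested. The p-values measure the spread between pools. The methods state that breeding from F0 to F3 was done in 2 independent rounds and that males of different litters entered each assay, but not which pool came from which round or litter.

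The stretches of 120 bases upstream of a listed transcription start are shown for 8 members as examples, since genes of the late cycle are known to carry short elements there. The choice is not independent of the tests, since all of them but *Cdk1* were called between the control groups. *Cdk1* was called in no comparison, and *Mcm7*, *Cdkn2b* and *Cdkn2c*, which are taken up below, are not shown. The stretches come from RefSeq on GRCm38, of which mm10 is the browser name, and are written 5′ to 3′ on the gene's strand. Capitals mark a cell cycle homology region (TTTGAA or TTCGAA) or the NF-Y box CCAAT, on either strand. The coordinates are chr7:135716380-135716499 on the minus strand for *Mki67*, chr11:99024190-99024309 minus for *Top2a*, chr3:135212443-135212562 plus for *Cenpe*, chr1:189688087-189688206 minus for *Cenpf*, chr10:69352913-69353032 minus for *Cdk1*, chr2:127831860-127831979 minus for *Bub1*, chr10:127063415-127063534 plus for *Cdk4* and chr4:136172154-136172273 plus for *E2f2*.
Mki67: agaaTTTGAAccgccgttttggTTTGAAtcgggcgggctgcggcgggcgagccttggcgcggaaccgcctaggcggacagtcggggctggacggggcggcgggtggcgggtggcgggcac
Top2a: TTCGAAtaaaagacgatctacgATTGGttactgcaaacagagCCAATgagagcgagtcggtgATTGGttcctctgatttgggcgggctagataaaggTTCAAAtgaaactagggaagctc
Cenpe: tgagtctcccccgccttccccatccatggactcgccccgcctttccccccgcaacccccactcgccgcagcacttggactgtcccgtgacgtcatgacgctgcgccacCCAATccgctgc
Cenpf: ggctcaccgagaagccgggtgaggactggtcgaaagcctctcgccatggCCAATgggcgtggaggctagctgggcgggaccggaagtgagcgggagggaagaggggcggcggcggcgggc
Cdk1: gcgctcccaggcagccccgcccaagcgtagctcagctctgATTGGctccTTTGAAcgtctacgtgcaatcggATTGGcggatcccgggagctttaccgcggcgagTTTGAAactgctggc
Bub1: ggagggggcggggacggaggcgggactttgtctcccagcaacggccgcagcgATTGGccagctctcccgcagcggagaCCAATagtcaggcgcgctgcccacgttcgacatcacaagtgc
Cdk4: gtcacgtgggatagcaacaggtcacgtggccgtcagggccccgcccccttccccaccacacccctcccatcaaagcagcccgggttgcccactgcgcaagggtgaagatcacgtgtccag
E2f2: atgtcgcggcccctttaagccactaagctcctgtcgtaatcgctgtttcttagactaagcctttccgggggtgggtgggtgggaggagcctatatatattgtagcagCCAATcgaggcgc

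In windows from 250 bases before to 50 after the start, a cell cycle homology region was found in 17 of the 36 members with a RefSeq promoter (47.2%) and in 21.7% of 27025 genes. It stood in 7 of the 9 mitosis members that were matched and in 2 of 6 replication members. An E2F element (TTTGGCGC, TTTGCCGC, TTTCGCGC or TTTCCCGC) was found in 10 of 36 members (27.8%) and in 2.6% of all genes, with 4 of 6 replication members and 0 of 9 mitosis members among them. CCAAT was found in 27 of 36 members (75.0%) and in 41.1% of all genes, with 6 of 6 replication and 8 of 9 mitosis members among them. Both strands were searched, each element was counted by itself whether or not it touched another, and a gene with several starts counted once. These counts describe the letters and not the binding of a factor, and differences between the groups of members were not tested. In the stretches above, the capitals number 5 for *Top2a* and none for *Cdk4*.

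Levels were compared between genes as RPKM (CPM per kilobase of exon) over the 6 control libraries. *Cdk4*, the partner of the D cyclins, was highest at a mean of 159 RPKM, with a range of 125 to 177 that overlapped no other member. *Pcna*, the sliding clamp of the DNA polymerases, followed at 70.7, and then *Cdc20*, an activator of the anaphase-promoting complex, at 63.9 and *Mcm7*, a subunit of the replicative helicase, at 59.9. The ranges of the last 3 overlapped, from 61.2 to 81.0 for *Pcna*, 57.9 to 72.4 for *Cdc20* and 53.2 to 65.3 for *Mcm7*. Of the other kinases, *Cdk1* stood at 25.3 RPKM, *Cdk2* at 10.8 and *Cdk6* at 1.58, so that *Cdk4* and not *Cdk6* made up nearly all transcripts of the cyclin D kinases. Of the D cyclins, *Ccnd3* was at 36.2 RPKM, *Ccnd2* at 22.8 and *Ccnd1* at 9.01.

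The inhibitors were expressed at lower levels than most proliferation members. *Cdkn2d* (p19) stood at 16.5 RPKM, *Cdkn1b* at 14.2 and *Cdkn2a* at 13.9, and their ranges overlapped. *Cdkn2a* gives p16 and p19Arf from overlapping reading frames, and the gene counts do not separate them. *Cdkn2c* (p18) was at 6.42 RPKM, *Cdkn1a* (p21) at 2.21 and *Cdkn2b* at 1.41, the lowest of all members, with a range of 1.01 to 1.79. *Rb1* was at 3.92 RPKM, below its relative *Rbl1* at 6.91 and next to *Rbl2* at 4.08.

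**Figure D1:**
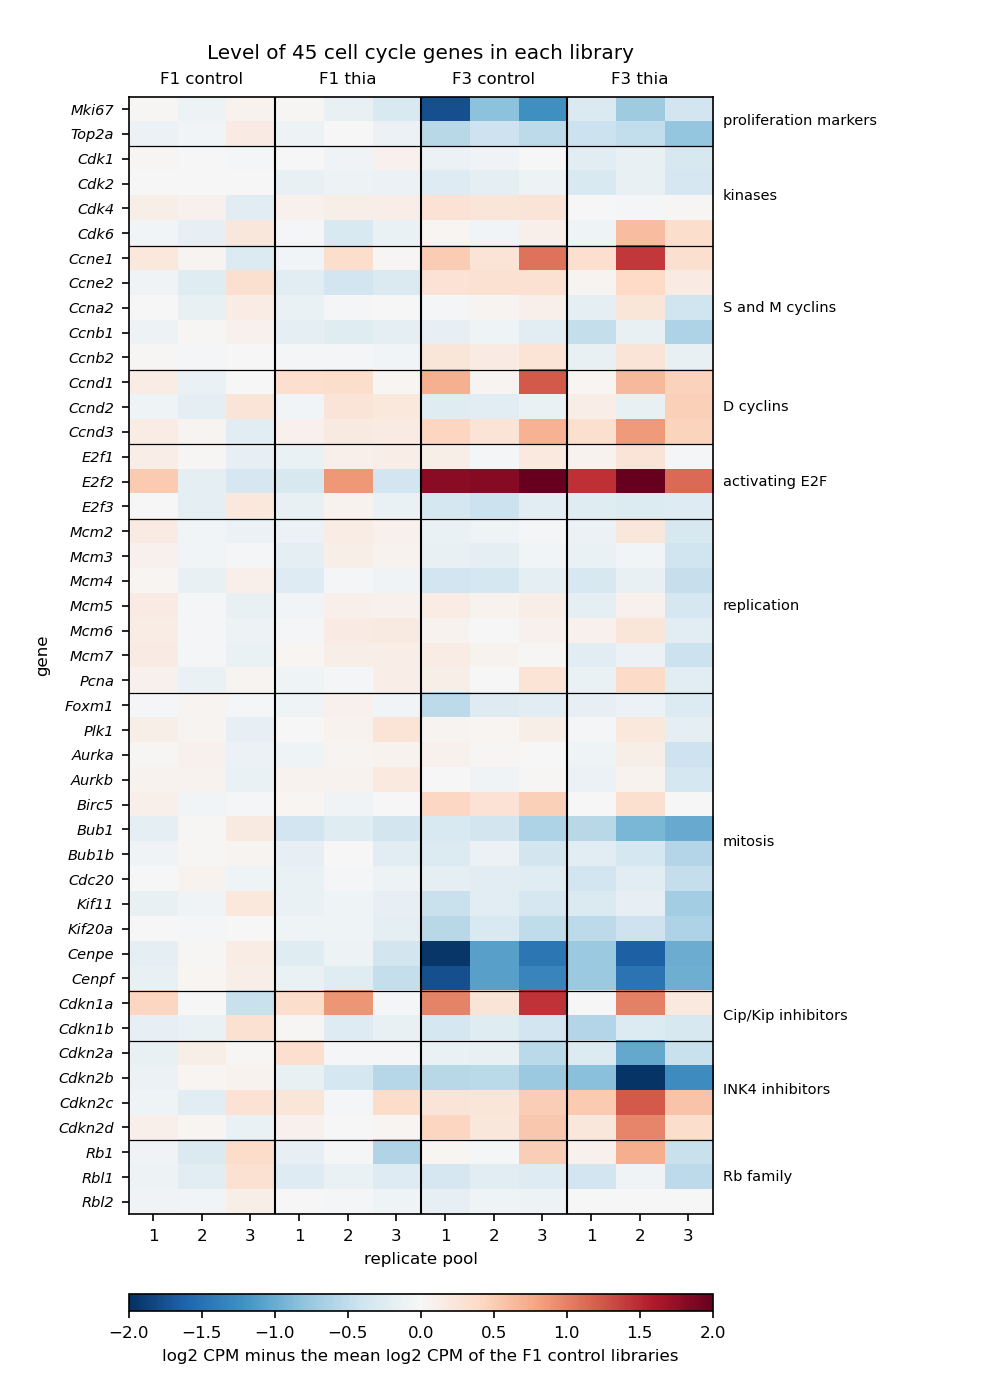
Colour gives the log2 CPM of each of the 45 genes (vertical axis, ordered by role) in each of the 12 libraries (horizontal axis, replicate pools 1 to 3 of each group) minus the mean log2 CPM of the 3 F1 control libraries, capped at -2 and 2. The F1 libraries are mostly pale, whereas *Cenpe* and *Cenpf* are blue and *E2f2* is red in all 6 F3 libraries. *Mki67* is blue in the F3 control libraries and paler in F3 *thia* libraries, where replicate 1, at 104 CPM, lies near the F1 libraries. F3 *thia* replicate 2 stands out in *Ccne1*, *Cdkn2b*, *Cdkn2c* and *Cdkn2d*.

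The first comparison asked whether direct exposure in the womb altered these genes in F1. None of the 45 members passed the FDR of 0.15 with the quasi-likelihood test of edgeR, at which 0.0105% of 19137 genes were called, and none passed with DESeq2, at which 1.01% of genes were called. Values were small, 22 with a positive and 23 with a negative log2FC (*thia* over control) between -0.33 and 0.41, and the standard error of a member's log2FC had a median of 0.105. The median log2FC was 0.00 for the 36 proliferation members, -0.02 for the 9 inhibitors and Rb genes and 0.01 for all genes tested. At an unadjusted p under 0.05 stood 0 higher and 2 lower members, that is 0% and 4.44% of the members against 4.63% and 4.13% of all genes.

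The 2 lower members, a share near that of all genes, are both among the 12 mitosis members of the list. *Bub1*, a kinase of the spindle checkpoint, was at 96.1, 111 and 124 CPM in F1 control and at 84.0, 92.5 and 85.5 CPM in F1 *thia* libraries. Its groups did not overlap, with a log2FC of -0.32 (SE 0.106, edgeR FDR 0.515). *Cenpf*, a large kinetochore protein, was at 88.5, 101 and 106 CPM in control and 89.1, 82.9 and 70.4 CPM in *thia* libraries. Here *thia* replicate 1 lay within the control range, and the log2FC was -0.27 (SE 0.110, edgeR FDR 0.553).

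Groups did not overlap for 1 member that was higher and 5 that were lower, that is 2.22% and 11.1% of the members against 6.55% and 8.45% of all genes. The higher one was *Aurkb*, a kinase of the chromosomal passenger complex. The lower ones were *Bub1*, *Ccnb1*, *Cdk2*, *Kif20a* and *Cdkn2b*, and *Aurkb*, *Cdk2* and *Kif20a* are named after their values were seen. *Ccnb1*, the main cyclin of mitosis, was at 123, 135 and 140 CPM in control and at 117, 112 and 116 CPM in *thia* libraries (log2FC -0.19, SE 0.0873, edgeR FDR 0.578). The lowest control library lay above the highest *thia* library by less than the control SD of 9.04 CPM.

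For the remaining named members of F1 the groups overlapped, except in *Cdkn2b*. *Mki67*, the gene of the proliferation marker Ki-67, was at 127 ± 7.87 CPM in control and 115 ± 13.7 CPM in *thia* testis, *Top2a* (topoisomerase II alpha, which untangles chromosomes) at 375 ± 37.8 and 357 ± 17.6 CPM, and *Mcm2* (a helicase subunit) at 169 ± 17.0 and 173 ± 15.9 CPM. *Cdk4* was at 470 ± 55.8 and 506 ± 6.12 CPM, and *Ccnd2* at 230 ± 38.5 and 252 ± 27.8 CPM. Among the genes tied to arrest, *Cdkn1b* was at 72.4 ± 13.5 and 65.7 ± 6.30 CPM and *Rb1* at 22.3 ± 5.28 and 18.5 ± 3.54 CPM. *Cdkn2b* was at 2.19, 2.43 and 2.48 CPM in control and at 2.13, 1.86 and 1.60 CPM in *thia* libraries, a log2FC of -0.33 (SE 0.202, edgeR FDR 0.639). *Cdkn1a* had the largest positive value, 0.41 (SE 0.261, edgeR FDR 0.642), with 7.08, 5.30 and 3.85 CPM in control and 6.70, 9.66 and 5.17 CPM in *thia* libraries, and it ran from 0.14 without *thia* replicate 2 to 0.65 without control replicate 1. The summed CPM of 3 marker lists did not overlap between the F1 groups. It was 26 to 37.8 in *thia* and 42.8 to 58.3 in control libraries for adrenal (5 markers), 68.6 to 84.1 and 57.5 to 66.2 for macrophages (6 markers), and 16.9 to 17.5 and 14.4 to 15.7 for granulosa cells (4 markers). Skeletal muscle (10 markers) reached 612 in *thia* replicate 2, against 46.0 to 115 in control libraries. No marker of these lists was at 0 in all libraries of a group, and their part in the values of the members was not tested.

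The second comparison asked whether ancestral exposure altered these genes in F3. With edgeR 0 of 45 members passed the FDR of 0.1, at which 0% of 18539 genes were called. The smallest FDR of any gene was 0.101, just above that threshold. Scaling by the upper quartile in place of TMM called 2.8% of all genes and 0 members. DESeq2 called 4, of which *Mki67* was higher and *Cdk4*, *Mcm7* and *Bub1* were lower in *thia* testis, while it called 9.17% of all genes as higher and 5.70% as lower. At an unadjusted p under 0.05 with edgeR stood 3 higher and 4 lower members, against 11.0% and 10.0% of all genes, that is 6.67% and 8.89% of the members. The median log2FC was -0.07 over the proliferation members, 24 of which were negative, and -0.05 over the inhibitors and Rb genes, with 0.00 over all genes.

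*Mki67* was at 37.4, 71.7 and 53.9 CPM in F3 control and at 104, 77.3 and 97.4 CPM in F3 *thia* libraries. All *thia* libraries were above all control libraries, and the log2FC was 0.77 (SE 0.226, FDR 0.136 with edgeR and 0.0093 with DESeq2). The control libraries differed among themselves by nearly as much as the group means, which were 54.3 ± 17.2 and 92.9 ± 13.9 CPM. Of the other long transcripts of mitosis, *Cenpe*, a kinetochore motor, was at 26.9 ± 7.90 and 34.9 ± 10.4 CPM and *Cenpf* at 38.2 ± 8.53 and 48.1 ± 11.9 CPM in control and *thia* testis, with overlapping groups. *Top2a* was at 265 ± 13.4 and 253 ± 31.4 CPM, with a log2FC of -0.07 (edgeR FDR 0.738), so that this proliferation marker did not show the value of *Mki67*.

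*Cdk4* was at 574, 552 and 557 CPM in F3 control and at 465, 453 and 474 CPM in F3 *thia* libraries. The gap between the groups exceeded the spread within either, whose SDs were 11.4 and 10.7 CPM, with a log2FC of -0.28 (SE 0.0678, FDR 0.113 with edgeR and 0.0219 with DESeq2). *Mcm7* was at 284, 271 and 260 CPM in control and at 221, 237 and 190 CPM in *thia* libraries, again without overlap (log2FC -0.33, SE 0.0939, FDR 0.132 with edgeR and 0.0563 with DESeq2). Of the other helicase subunits, *Mcm5* had a log2FC of -0.25 (SE 0.113, edgeR FDR 0.258), and *Mcm2*, *Mcm3*, *Mcm4* and *Mcm6* lay between -0.06 and 0.04. Differences between the subunits were not tested.

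*Bub1* was at 89.1, 85.4 and 71.2 CPM in F3 control and at 74.7, 58.4 and 54.5 CPM in F3 *thia* libraries (log2FC -0.39, SE 0.134, FDR 0.166 with edgeR and 0.096 with DESeq2). Only *thia* replicate 1 overlapped the control libraries. *Birc5* (survivin, of the chromosomal passenger complex) was at 86.4, 80.0 and 90.7 CPM in control and at 65.7, 81.4 and 65.3 CPM in *thia* libraries, replicate 2 being the one within the control range (log2FC -0.28, SE 0.108, edgeR FDR 0.201). *Ccnd2* was at 193, 194 and 209 CPM in control and at 250, 206 and 317 CPM in *thia* libraries (log2FC 0.37, SE 0.153, edgeR FDR 0.225). Replicate 2 was again the *thia* library nearest to control, and the value ran from 0.19 without *thia* replicate 3 to 0.51 without replicate 2.

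Of the inhibitors in F3, *Cdkn2c* was at 18.2, 18 and 21.4 CPM in control and at 21.9, 35.5 and 22.5 CPM in *thia* libraries. The groups did not overlap, and the log2FC of 0.47 (SE 0.199, edgeR FDR 0.236) came to 0.21 without *thia* replicate 2. *Cdkn2b* was at 1.61, 1.62 and 1.41 CPM in control and at 1.32, 0.604 and 0.988 CPM in *thia* libraries (log2FC -0.66, SE 0.296, edgeR FDR 0.254), lower in 3 of 3. With 1 library left out this value ran from -0.94 to -0.43, the latter without *thia* replicate 2, its lowest library. *Cdkn1b* was at 57.2 ± 2.86 and 54.7 ± 6.34 CPM, *Cdkn1a* at 10.3 ± 3.99 and 7.28 ± 2.91 CPM and *Rb1* at 24.9 ± 5.12 and 25.1 ± 10.2 CPM in control and *thia* testis, and none of these passed the test. *Ccnb1*, at 119 ± 5.11 and 100 ± 16.9 CPM, and *Mcm2*, at 158 ± 5.63 and 163 ± 31.7 CPM, did not pass it either. In all, 3 members were higher and 4 lower without overlap, against 13.4% and 13.9% of all genes. The higher ones were *Mki67*, *Cdkn2c* and *Rbl2*, and the lower ones *Cdk4*, *Cdk1*, *Mcm7* and *Cdkn2b*, *Rbl2* and *Cdk1* being named after their values were seen.

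**Figure D2:**
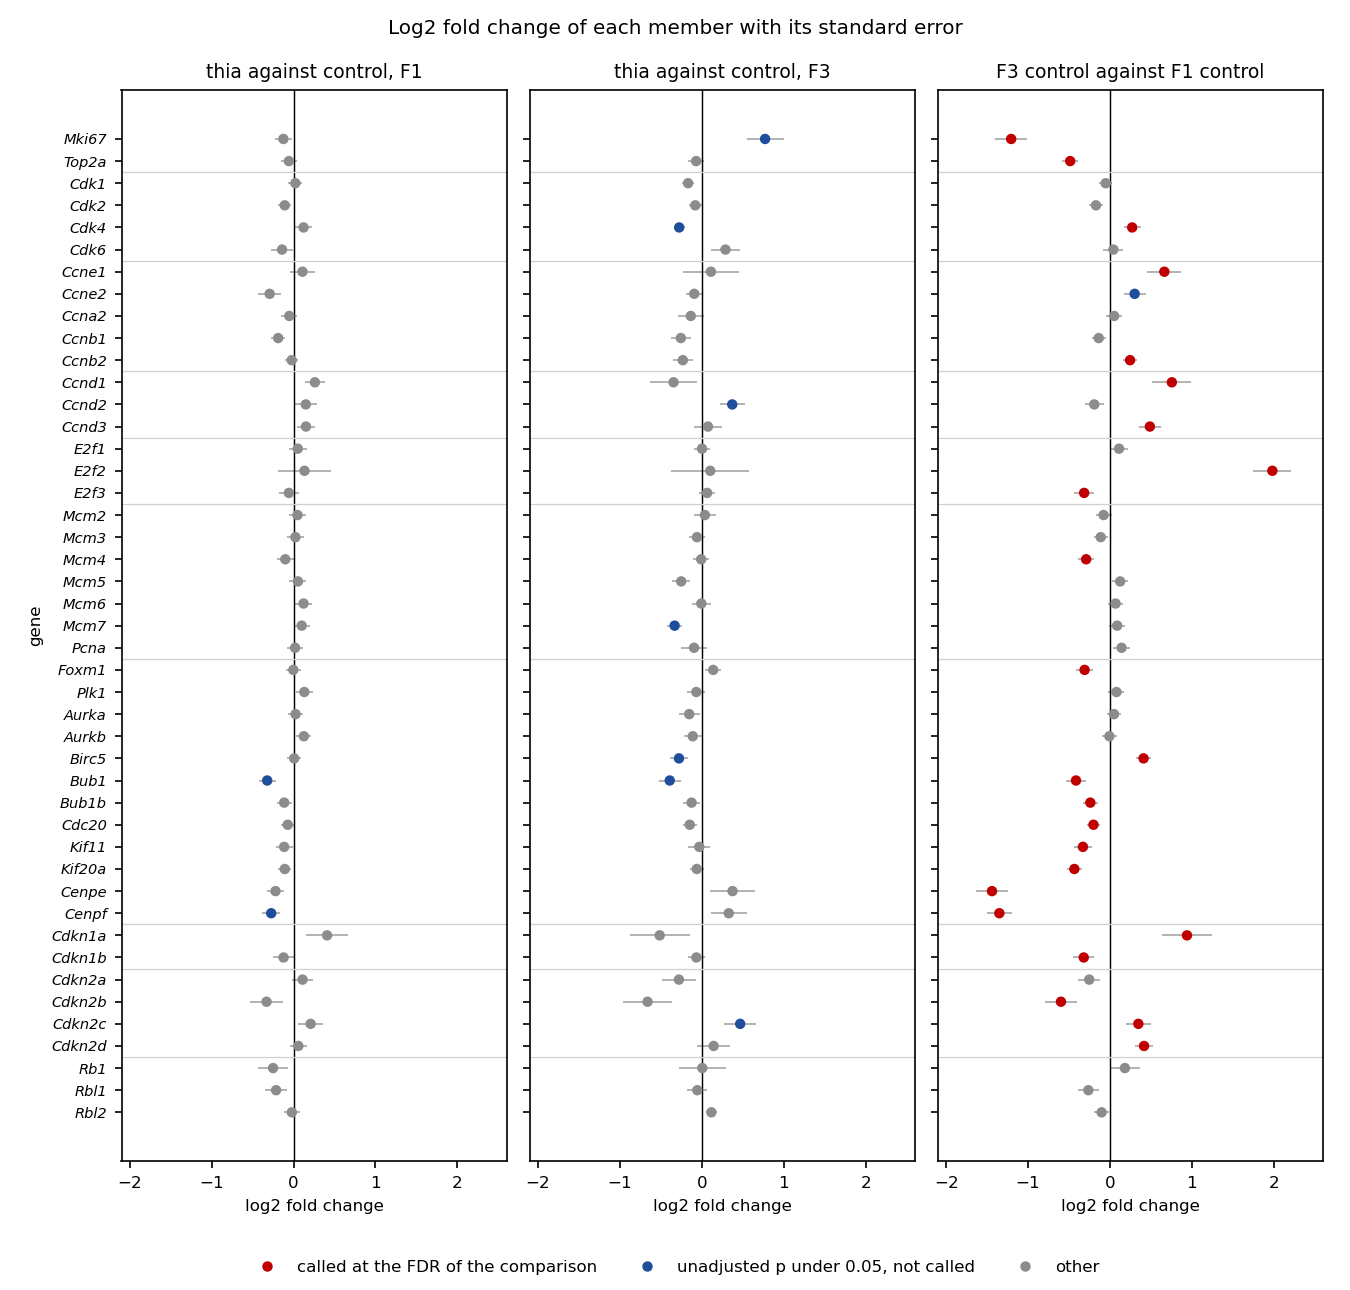
Each point is the log2FC of a gene (vertical axis, ordered by role) from edgeR, with a bar of 1 standard error to each side, for *thia* over control in F1, *thia* over control in F3 and F3 control over F1 control. Red marks calls at the FDR of the comparison, which occur for 24 genes in the control comparison and in neither *thia* comparison, and blue marks an unadjusted p under 0.05 without a call, as for *Mki67* at 0.77 in F3.

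F3 *thia* replicate 2 shaped much of the spread in its group. It held the highest value of its group for 27 of the 36 proliferation members and the lowest for 6, whereas replicate 3 held the lowest for 26. *E2f2*, an activating E2F, was at 60.1, 178 and 47.7 CPM in *thia* libraries, and *Ccne1* (cyclin E1) at 17.5, 36.7 and 17.3 CPM. Replicates 1 and 3 lay close together in both genes, well below replicate 2. Without replicate 2, edgeR called 8 members at the FDR of 0.1, when 6.82% of all genes were called, and the median log2FC of the proliferation members was -0.16. *Mki67* and *Ccnd2* were higher, and *Birc5*, *Ccnb1*, *Ccnb2*, *E2f2*, *Mcm5* and *Mcm7* were lower, with log2FC values of 0.89 for *Mki67*, 0.51 for *Ccnd2*, -0.39 for *Birc5*, -0.40 for *Ccnb1* and -0.40 for *Mcm7*. With all 12 libraries in one fit, which shares the spread between generations, edgeR called *Mki67*, *Cdk4* and *Mcm7*, when 9.86% of all genes were called. *Mki67* and *Mcm7* were thus called by DESeq2 and in both of these fits, and *Cdk4* by DESeq2 and in the fit of 12 libraries but not without replicate 2 (log2FC -0.26, edgeR FDR 0.126). *Bub1*, called by DESeq2 with all libraries, was not called without replicate 2 (log2FC -0.35, edgeR FDR 0.225). The log2FC without it was -0.43 for *Cdkn2b*, -0.88 for *Cdkn1a*, -0.13 for *Cdkn1b*, -0.35 for *Rb1*, -0.10 for *Top2a* and -0.12 for *Mcm2*, and none of these was called. With any 1 of the F3 control libraries left out, edgeR called none of the 45. It then called 0%, 0.0106% and 0% of all genes without control replicates 1, 2 and 3.

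The summed CPM of cell type markers also differed between the F3 groups. For Leydig cells (6 of 6 markers found, none at 0) it was 3840 to 6970 in *thia* and 2190 to 3620 in control libraries, for endothelium (6 of 6, none at 0) 234 to 280 and 157 to 178, and for adrenal (5 of 5, none at 0) 52.2 to 112 and 33.5 to 49.6. Germ cell markers (10 of 10, none at 0) summed to 502 to 974 CPM in *thia* and 717 to 1100 CPM in control libraries, with overlap. Their part in the values of the members was not tested.

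**Figure D3:**
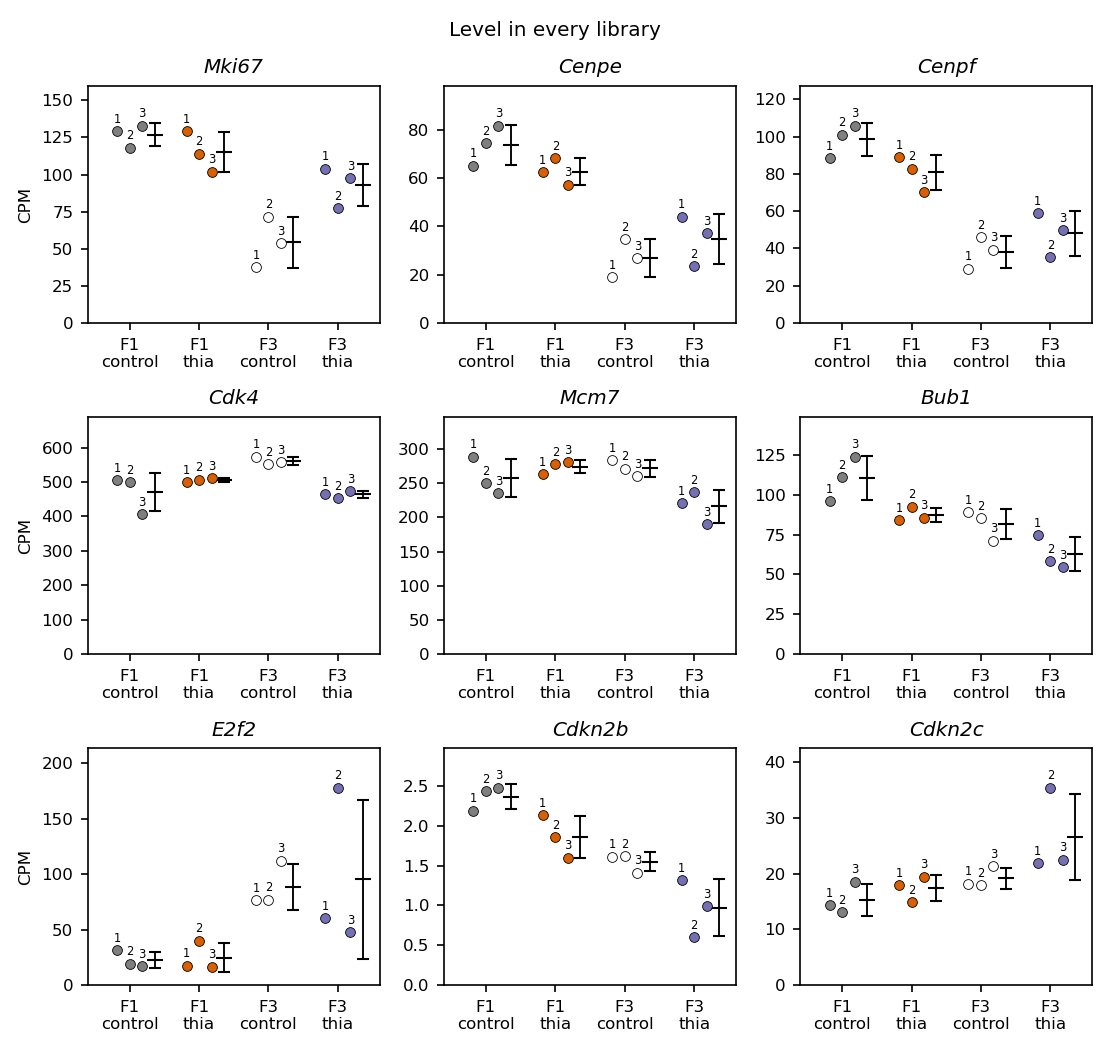
Points give the CPM of 9 members (vertical axis, from 0) in each library of the 4 groups (horizontal axis, with the replicate number above each point), and the bars beside them the mean and SD of the 3 libraries. *Cdk4* and *Mcm7* lie lower in all F3 *thia* than in all F3 control libraries. *Cenpe* and *Cenpf* drop from F1 to F3, *Mki67* drops mainly in the F3 control libraries, and *E2f2* reaches 178 CPM in F3 *thia* replicate 2.

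The difference between the *thia* effects of F3 and F1 was tested as an interaction over all 12 libraries. No member passed an FDR of 0.1 with edgeR, where 0.00510% of 19626 genes were called, and DESeq2 called *Mki67* and *Cdk4*, with 4.74% of all genes called. An unadjusted p under 0.05 was reached by 4 members, against 14.0% of all genes. *Mki67* had a difference of 0.91 on the log2 scale (SE 0.265, FDR 0.251 with edgeR and 0.049 with DESeq2), its log2FC being -0.12 in F1 and 0.77 in F3, and a difference of 1.03 without F3 *thia* replicate 2 (edgeR FDR 0.134). *Cdk4* had a difference of -0.38 (SE 0.122, FDR 0.254 with edgeR and 0.082 with DESeq2), with 0.12 in F1 and -0.28 in F3. For *Mcm7* it was -0.41 (SE 0.139, edgeR FDR 0.255), and for *Cenpf* 0.62 (SE 0.262, edgeR FDR 0.321). *Bub1* had nearly the same negative value in each generation, and its difference was -0.05 (SE 0.183, edgeR FDR 0.926). The differences of the other fixed members were 0.01 for *Top2a* and *Mcm2*, -0.05 for *Ccnb1*, 0.24 for *Ccnd2*, -0.91 for *Cdkn1a* (SE 0.492, edgeR FDR 0.42), 0.07 for *Cdkn1b*, -0.31 for *Cdkn2b* and 0.28 for *Rb1*.

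The control testes of F3 and F1 were compared last, as a measure of how these genes vary without *thia*. These groups also differ in time and in the oil that mothers of F1 but not of F3 embryos received. This contrast gave the most calls among the members. With edgeR at an FDR of 0.1, 10 members were higher and 14 lower in F3 control testis, that is 22.2% and 31.1% of the members against 21.3% and 21.9% of 18588 genes, and DESeq2 called 24, when it called 37.9% of all genes. Scaling by the upper quartile in place of TMM gave 11 higher and 9 lower members. Without overlap stood 7 higher and 18 lower members, against 23.6% and 26.4% of all genes. The median log2FC (F3 over F1) was -0.03 for the proliferation members, -0.10 for the inhibitors and Rb genes and -0.01 for all genes.

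Mitosis genes made up most of the lower calls, with 8 of 12 lower and 1 higher. *Cenpe* was at 65.2, 74.6 and 81.8 CPM in F1 control and at 19.0, 34.8 and 26.9 CPM in F3 control libraries (log2FC -1.44, SE 0.190, edgeR FDR 0.000741). *Cenpf* was at 88.5, 101 and 106 CPM in F1 and at 29.2, 46.2 and 39.3 CPM in F3 control libraries (log2FC -1.35, SE 0.155, edgeR FDR 0.000421). In both genes F3 control replicate 1 was the lowest library and replicate 2 the highest of its group, as it was for *Mki67*. *Mki67* was at 129, 118 and 133 CPM in F1 and at 37.4, 71.7 and 53.9 CPM in F3 control libraries (log2FC -1.21, SE 0.192, edgeR FDR 0.0017). *Top2a* fell from 375 ± 37.8 to 265 ± 13.4 CPM, with a log2FC of -0.49 (SE 0.0981, edgeR FDR 0.00506).

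The other mitosis members that fell were *Bub1*, from 110 ± 14.2 to 81.9 ± 9.44 CPM (log2FC -0.41, edgeR FDR 0.0224), the kinesin *Kif20a*, from 110 ± 1.29 to 80.7 ± 7.35 CPM (-0.43, edgeR FDR 0.00563), and *Foxm1*, *Kif11*, *Bub1b* and *Cdc20*, with log2FC values between -0.33 and -0.20. *Birc5* rose, from 65.2 ± 4.04 to 85.7 ± 5.41 CPM (0.41, edgeR FDR 0.00823). *Plk1*, *Aurka* and *Aurkb*, the mitotic kinases, lay between -0.01 and 0.08 and did not pass the test. The decline was thus uneven within the mitosis group, and it was largest for *Cenpe* and *Cenpf*, the mitosis members with the longest exons.

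Of the replication members 1 of 7 was called, *Mcm4*, with a log2FC of -0.29, and *Mcm2* was at 169 ± 17.0 and 158 ± 5.63 CPM without passing. Several members that act in G1 were higher. *E2f2* was at 31.2, 19.2 and 17.2 CPM in F1 and at 76.3, 76.8 and 112 CPM in F3 control libraries, the largest rise of any member (log2FC 1.98, SE 0.233, edgeR FDR 0.000467). *Ccnd1* (cyclin D1) rose from 31.8 ± 3.13 to 53 ± 20.6 CPM (0.76, edgeR FDR 0.0345), *Ccnd3* from 266 ± 33.0 to 369 ± 55.8 CPM (0.49, edgeR FDR 0.0201), *Ccne1* from 14.0 ± 2.27 to 21.9 ± 6.53 CPM (0.66, edgeR FDR 0.0326) and *Cdk4* from 470 ± 55.8 to 561 ± 11.4 CPM (0.27, edgeR FDR 0.0719). *Ccnb2* (cyclin B2) also rose, with a log2FC of 0.25 (edgeR FDR 0.0403). *E2f3* was lower with -0.32 (edgeR FDR 0.0744), and *E2f1* did not pass the test. *Foxm1*, *Kif11*, *Bub1b*, *Cdc20*, *Mcm4*, *E2f3* and *Cdkn2c* were called but lay outside the 15 smallest p, and they are named after their values were seen. *Ccnd2* and *Ccnb1*, with -0.19 and -0.14, were not called.

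The inhibitors split as well. *Cdkn1a*, at 7.08, 5.30 and 3.85 CPM in F1 and 10.4, 6.28 and 14.3 CPM in F3 control libraries, had a log2FC of 0.94 (SE 0.303, edgeR FDR 0.037), although F3 replicate 2 lay within the F1 range. *Cdkn2d* rose with a log2FC of 0.42 (edgeR FDR 0.0203) and *Cdkn2c* with 0.35 (edgeR FDR 0.0993). *Cdkn2b* fell in 3 of 3 libraries, from 2.37 ± 0.154 to 1.55 ± 0.12 CPM (log2FC -0.60, SE 0.199, edgeR FDR 0.0419), and *Cdkn1b* from 72.4 ± 13.5 to 57.2 ± 2.86 CPM (-0.32, SE 0.125, edgeR FDR 0.0738). None of the 3 Rb genes was called, *Rb1* having a log2FC of 0.18. Leaving out 1 library gave 14 calls among the members without F3 control replicate 1 and 14 without replicate 3, when 34.3% and 34.6% of all genes were called. *Cenpe*, *Cenpf*, *Mki67*, *Top2a*, *Bub1*, *Kif20a*, *Birc5*, *Ccnd3*, *Cdkn2d* and *E2f2* were called whichever of the 6 libraries was left out. The calls of *Ccnd1*, *Ccne1* and *Cdkn1a* were lost without F1 control replicate 3 and without F3 control replicate 3, in the latter case with log2FC values of 0.43, 0.39 and 0.62, and that of *Ccnd1* also without F1 control replicate 2. *Cdk4* and *Cdkn1b* lost theirs without any 1 of the F3 control libraries or F1 control replicate 3, which left 0.18 and -0.16 (edgeR FDR 0.108 and 0.136). *Cdkn2b* lost its call without F1 control replicate 2 or F3 control replicate 3, with -0.57 and -0.54, and *Ccnb2* without these or F3 control replicate 1.

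Markers of 7 cell types did not overlap in sum between the control groups. The 8 erythroid markers (8 of 8 found, none at 0) summed to 4490 to 12300 CPM in F1 control and to 51900 to 55800 CPM in F3 control libraries. *E2f2*, *Ccne1* and *Cdkn2d* were highest in the library with the highest sum, F3 *thia* replicate 2. So were other members, among them *Ccnd3* at 476 CPM, *Pcna* at 211 CPM and *Rb1* at 36.1 CPM. A highest value in that library was thus not particular to *E2f2*, *Ccne1* and *Cdkn2d*. In F1 the libraries with the highest sums, *thia* replicate 2 at 14900 CPM and control replicate 1 at 12300 CPM, were those with the most *E2f2*, 39.9 and 31.2 CPM, and the other 4 held 16.6 to 19.2 CPM. The same 2 libraries held the most *Ccne1* of F1, 17.6 and 16 CPM, but *Cdkn2d* stood at 20.4 to 24.0 CPM in F1 without that order. F3 *thia* replicate 2, with a sum of 72400 CPM, held 178 CPM of *E2f2*, and among the F3 control libraries the order of *E2f2* was not that of the sum. Germ cell markers (10 of 10, none at 0) summed to 1210 to 1650 CPM in F1 and 717 to 1100 CPM in F3 control libraries, and Sertoli markers (10 of 10, none at 0) to 1520 to 1790 and 936 to 1180 CPM. Mesonephric epithelium (6 of 6) summed to 37.8 to 52.3 CPM in F1 and 127 to 134 CPM in F3, macrophages (6 of 6) to 57.5 to 66.2 and 110 to 179 CPM, granulosa cells (4 of 4) to 14.4 to 15.7 and 21.9 to 25.9 CPM, and endothelium (6 of 6) to 227 to 277 and 157 to 178 CPM, none of their markers being at 0. The part of these sums in the values of the members was not tested.

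**Figure D4:**
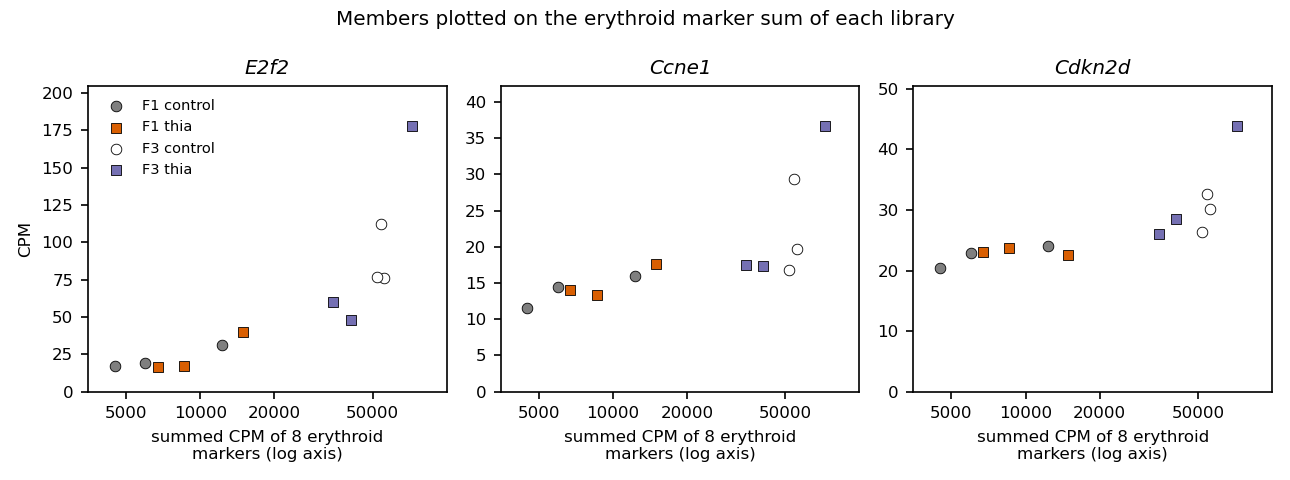
The CPM of *E2f2*, *Ccne1* and *Cdkn2d* (vertical axes, from 0) is plotted against the summed CPM of 8 erythroid markers on a log axis for the 12 libraries, with circles for control and squares for *thia*. F1 libraries lie at sums of 4490 to 14900 CPM and F3 libraries at 34700 to 72400 CPM, and F3 *thia* replicate 2 is highest on both axes in each panel. Other members, not plotted, were also highest in that library.

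Gene length moved with the contrasts too. Over all genes, the median log2FC of F3 over F1 control ran from 0.31 in the fifth with the shortest exons to -0.24 in the fifth with the longest, and that of F3 *thia* over F3 control from -0.12 to 0.12. The 9 members in the fifth with the longest exons had medians of -0.33 and 0.29. *Cenpf* has 15433, *Mki67* 10061, *Top2a* 9013 and *Cenpe* 8620 bases of exon. After the trend over all genes was removed, a step chosen after seeing the data, *Cenpe* still stood at -1.23, *Cenpf* at -0.98 and *Mki67* at -0.95 in the control contrast and *Mki67* at 0.64 in F3, whereas *Top2a* was reduced to -0.26 and *Ccnb2* went from 0.25 to -0.02. For *Cdk4* and *Mcm7*, of middle length, the values in F3 were -0.26 and -0.35. Of the 14 members called lower in F3 control, 14 kept a negative sign, as 9 of the 10 called higher kept a positive one.

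**Figure D5:**
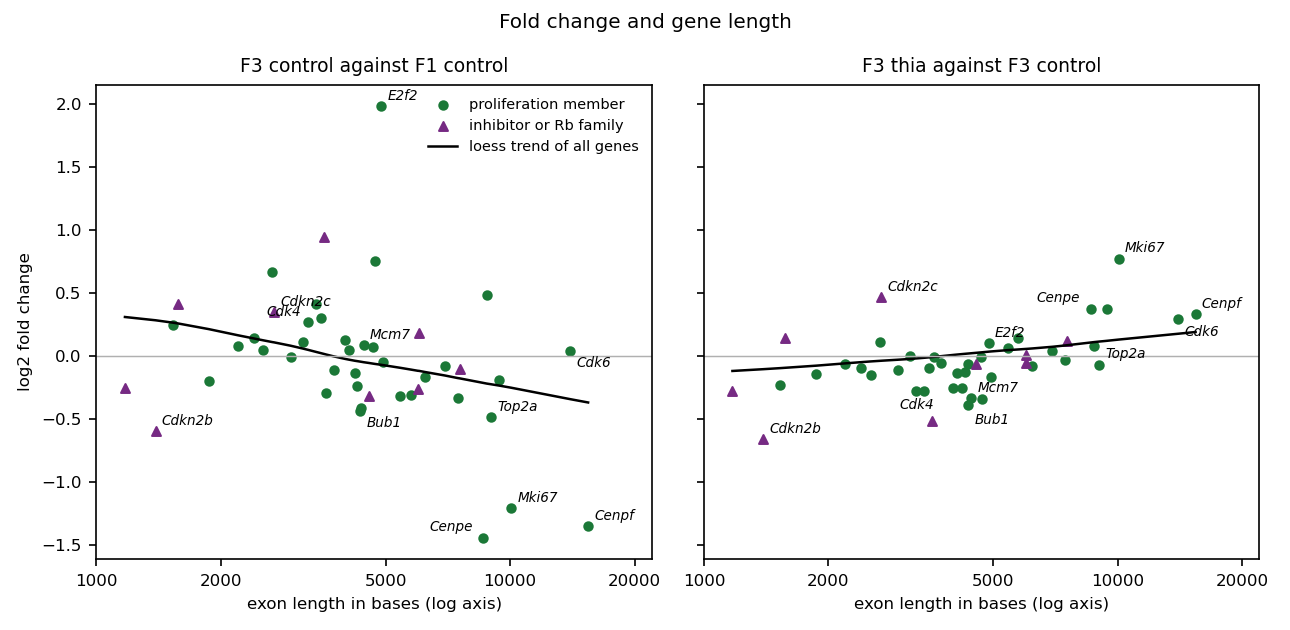
The log2FC of each member (vertical axis) is plotted against its exon length in bases on a log axis, for F3 control over F1 control and for F3 *thia* over F3 control, with the loess trend of all genes as a line. The trend falls in the control contrast and rises in the *thia* contrast, and *Cenpe*, *Cenpf* and *Mki67* lie far below it in the former while *Mki67* lies above it in the latter.

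A wider set of 96 cell cycle genes in 6 lists was read beside the members. In F1 0 were called with edgeR or DESeq2. At an unadjusted p under 0.05 1 was higher and 11 were lower, that is 1.04% and 11.5% of the set against 4.63% and 4.13% of all genes. With 1 library left out the number lower ran from 2 without *thia* replicate 3 to 16 without control replicate 1. In these fits 1.78% and 6.54% of all genes were lower at that p. The smallest p belonged to *Mad2l1*, of the spindle checkpoint, at 123 ± 11.2 CPM in control and 97.6 ± 3.77 CPM in *thia* testis (log2FC -0.32, edgeR FDR 0.492), then to *Dbf4*, the activator of a replication kinase, with -0.27, and *Smc2*, of condensin, with -0.31. In F3 0 were called with edgeR and 14 with DESeq2, all lower, where DESeq2 called 5.70% of all genes lower and 9.17% higher. At an unadjusted p under 0.05 2 were higher and 22 lower, that is 2.08% and 22.9% of the set against 11.0% and 10.0% of all genes. Without F3 *thia* replicate 2 edgeR called 12, all lower, where it called 2.59% of all genes lower and 4.23% higher. At an unadjusted p under 0.05 2 were then higher and 35 lower, against 11.9% and 10.4% of all genes. With all libraries, the 22 lower ones were 5 of 13 genes of origin licensing and firing, 6 of 17 of DNA and nucleotide synthesis, 4 of 11 of the checkpoint, 6 of 33 of kinetochore, spindle and cytokinesis, and 1 of 9 p53 targets with p57, and none of 13 other E2F, DREAM and MuvB genes. The GINS subunit *Gins2* was at 83.1 ± 5.98 CPM in F3 control and 59.3 ± 1.90 CPM in F3 *thia* testis, with a log2FC of -0.49 (edgeR FDR 0.101). *Gins4* had -0.50 (edgeR FDR 0.104) and *Tyms*, thymidylate synthase, -0.42 (edgeR FDR 0.105). These 3 also had the smallest p of the wider set in the difference between generations, -0.60, -0.56 and -0.55. There 0 of the 96 were called with edgeR and 4 with DESeq2, which called 4.74% of all genes.

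Between the control groups edgeR called 17 of the 96 higher and 36 lower at the FDR of 0.1, that is 17.7% and 37.5% of the set against 21.3% and 21.9% of all genes. Without F1 control replicate 2 the calls fell from 53 to 32, when 33.6% of all genes were called. Of the 33 genes of kinetochore, spindle and cytokinesis, 17 were called lower and 3 higher in F3, and the median log2FC was -0.25. The smallest p belonged to the stress gene *Sesn2*, at 31.1 ± 6.47 CPM in F1 and 8.28 ± 0.696 CPM in F3 (log2FC -1.90, edgeR FDR 0.000134), the phosphatase gene *Cdc25b* (1.5, edgeR FDR 0.000155) and *Gadd45g* (-1.68, edgeR FDR 0.000461). Whether kinetochore and spindle genes differed from genes at large was not tested.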

How the data were processed

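Testes of F1 and F3 embryos were profiled by strand-specific, paired-end RNA-seq, 3 pools in each of 4 groups. The deposited values are raw gene counts that the authors made with HISAT2 2.1.0 and featureCounts on mm10 with the refGene annotation, after bcl2fastq 2.20.0.422, versions being those of the submitters' processing notes. Whether reads or pairs were counted is not given in the sources used here. The counts were tested with edgeR 4.0.16 in R 4.3.3 (TMM, filterByExpr with a minimum count of 10, quasi-likelihood test, Benjamini-Hochberg adjustment over all genes), separately for each comparison, at an FDR of 0.15 in F1 and 0.1 elsewhere. The study's own tool, DESeq2 (1.42.0), was an alternative, besides other scalings, filters, a replicate block and leaving out each library. Exon lengths came from GENCODE M21 by symbol (26763 of 35976 symbols, and 542 more through RefSeq synonyms), promoters from RefSeq. Total counts lay between 25081647 and 68996146 a library. Counting error was largest for *Cdkn2b*, with counts down to 21. Named were 10 fixed members, at most 15 members of smallest p among those called or under an unadjusted p of 0.05, and at most 3 wider genes a comparison. The members and lists were chosen with earlier results of these data known. The tests were also run on simulated counts, with changes set larger than those of most members. That run does not show how well smaller changes are recovered, and its outcome is not given here. Same-numbered libraries did not deviate together, so that no pairing was assumed. No library duplicated another.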

Additional observations from a re-analysis of the deposited data

How the results depend on the processing

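Over 75 results, 1132 of 1228 values under alternatives kept their direction and side of the threshold, or moved within the spread of replicates; 25 lost and 14 gained a call, 40 changed sign and 17 moved. In F3, edgeR called 0 members, DESeq2 4 and one fit of all 12 libraries 3, and leaving out 1 library gave 0 to 8, the 8 without F3 *thia* replicate 2. For the difference between generations DESeq2 called 2 in place of 0. For F3 against F1 control, leaving out 1 library gave 14 to 20 of the 24 calls, and the upper quartile gave 11 higher and 9 lower in place of 10 and 14. Of the 96 wider genes, left-out libraries, chosen after seeing the data, gave 0 to 12 calls in F3 in place of 0 and 32 to 52 between the controls in place of 53. The cause was not tested. The loess removal of the length trend was chosen after seeing the data and turned *Ccnb2* between the controls to -0.0191.

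Members near 0 changed sign. With 1 library left out, the log2 fold change in F1 ran from -0.114 to 0.0246 for *Top2a*, -0.0112 to 0.13 for *Mcm2* and -0.205 to 0.0378 for *Cdkn1b*. In F3 it ran from -0.145 to 0.0259 for *Top2a*, -0.122 to 0.153 for *Mcm2*, -0.127 to 0.0166 for *Cdkn1b* and -0.348 to 0.248 for *Rb1*. The difference between generations ran from -0.0778 to 0.104 for *Top2a*, -0.191 to 0.0486 for *Ccnb1*, -0.153 to 0.126 for *Mcm2*, -0.0895 to 0.189 for *Cdkn1b* and -0.0784 to 0.52 for *Rb1*. Between the controls it ran from -0.135 to 0.0124 for *Mcm2* and -0.00636 to 0.378 for *Rb1*. The upper quartile gave -0.0226 for *Rb1* in F3 and, for the difference between generations, -0.07 for *Top2a*, -0.0669 for *Mcm2* and -0.00424 for *Cdkn1b*. That difference for *Top2a* was -5.2e-05 with DESeq2, -0.00119 with its size factors and -0.00427 with at least 10 counts in every library, which gave -0.00154 for *Mcm2*.

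Same-numbered libraries of control and *thia* deviated with correlations of -0.0433 to 0.0316 in F1 and -0.368 to 0.195 in F3, and those of the 2 controls with -0.0654 to 0.0929, so the numbers were not taken to pair. Of 6 libraries, 0, 1 and 0 correlated best with their own number. With a replicate block, 0 members were called in F1, in F3 and for the difference, and 24 between the controls, while *Rb1* in F3 became -0.0451 and the difference -0.00409 for *Top2a* and -0.00934 for *Mcm2*.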

Other observations

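*Cdkn1c*, the gene of p57, an imprinted Cip/Kip inhibitor, is no member but was read in the wider set, and it is named here after its values were seen. It was at 215 ± 37.3 CPM (SD, n = 3) in F1 control, 280 ± 57.7 CPM in F1 *thia*, 620 ± 183 CPM in F3 control and 526 ± 126 CPM in F3 *thia* testis. Between the control groups its log2 fold change was 1.55 (SE 0.205, edgeR FDR 0.000771), with F3 above F1, and in F1 *thia* against control it was 0.40 (SE 0.159, edgeR FDR 0.548).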
